A study of Mus musculus with 18 samples.

Results

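The 9 genes described here encode fibroblast growth factors (FGFs) that O9-1 cells could make themselves, next to the FGF2 protein that was added to the cultures. They are Fgf1, Fgf2, Fgf5, Fgf7, Fgf9, Fgf10, Fgf11, Fgf18 and Fgf21, chosen by name from the 22 FGF genes of the mouse annotation, and they are 9 of the 55335 genes counted. O9-1 is a primary line of neural crest (NC) cells from the head of mouse embryos, and all cultures here were kept in osteoblast differentiation medium. Polyadenylated RNA was sequenced in 18 libraries, with 3 replicates of each of 3 groups after 2.5 days (d2.5) and again after 5 days (d5). Ctrl+vehicle cells received scramble siRNA and no FGF2. Ctrl+FGF2 cells received scramble siRNA and FGF2. Y/T dKD+FGF2 cells received siRNA pools against Yap and Taz together with FGF2. Every group carries the wild-type genotype and an siRNA transfection, and no group combines the knockdown with vehicle, so an effect of the knockdown without FGF2 cannot be read. The labels do not give the FGF2 dose, and they do not say whether replicates were separate cultures, so p-values measure the spread between these libraries, which may be technical.

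FGFs bind receptor tyrosine kinases of the FGFR family together with heparan sulfate on the cell surface, and the activated receptor signals through adaptors such as Frs2 to ERK, which induces feedback inhibitors. The ligands differ in reach and in receptor choice. Fgf1 and Fgf2 lack a classical signal peptide, Fgf7 and Fgf10 are made by mesenchyme and act mainly on the IIIb splice form of Fgfr2 in epithelium, and Fgf9 and Fgf18 act in bone and cartilage, Fgf18 above all in the sutures of the skull. Fgf5 is known as a regulator of hair growth, Fgf11 stays inside the cell, and Fgf21 is a hormone that needs the co-receptor beta-Klotho (Klb). The added FGF2 is a protein and gives no reads, so counts of Fgf2 are those of the cells' own transcript.

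Fgf7 and Fgf10 were the members with the most RNA and both rose with FGF2, and Fgf10 and Fgf18 were the members that lay lower under Y/T dKD+FGF2 than in both other groups at d5. The 250 bases before the RefSeq start of these 3 genes (GRCm38.p6) are shown because their changes are the ones the results turn on. The sequences are in lower case and read from 5′ to 3′.
Fgf7, 250 bases before the start, chr2:126034408-126034657, plus strand: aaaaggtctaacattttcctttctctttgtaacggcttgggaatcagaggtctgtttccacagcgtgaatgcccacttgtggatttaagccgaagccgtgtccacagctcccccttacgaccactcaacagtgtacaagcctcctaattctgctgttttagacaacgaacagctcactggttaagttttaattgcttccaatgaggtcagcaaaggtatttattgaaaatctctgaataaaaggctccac
Fgf10, 250 bases before the start, chr13:118714449-118714698, plus strand: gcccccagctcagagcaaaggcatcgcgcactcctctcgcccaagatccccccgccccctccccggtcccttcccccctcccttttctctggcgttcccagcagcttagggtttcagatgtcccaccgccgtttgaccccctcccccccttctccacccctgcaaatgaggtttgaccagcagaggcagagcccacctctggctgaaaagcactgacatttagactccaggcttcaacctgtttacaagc
Fgf18, 250 bases before the start, chr11:33147401-33147650, minus strand: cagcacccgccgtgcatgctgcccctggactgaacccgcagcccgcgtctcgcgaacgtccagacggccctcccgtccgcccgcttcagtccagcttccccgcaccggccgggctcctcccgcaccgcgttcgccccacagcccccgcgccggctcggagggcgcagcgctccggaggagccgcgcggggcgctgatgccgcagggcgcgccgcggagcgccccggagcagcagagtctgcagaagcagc
In these windows, extended by 50 bases past the start, G and C made up 45.67% for Fgf7, 60.67% for Fgf10 and 78.67% for Fgf18. The window of Fgf10 lies inside the longer Fgf10 gene of GENCODE, and none of the 3 stretches shown holds an annotated exon. The windows were searched on both strands for the letters GGAATG of the TEAD factors that carry Yap and Taz to DNA, TGANTCA of AP-1 and CCGGAA of the ETS factors, to which Etv4 and Etv5 belong. None of the 3 windows held any of these letters, nor did that of Fgf2. Of 32851 promoter windows of the same length, 14.7% held the TEAD letters, 7.81% those of AP-1 and 14.9% those of ETS. Among the 8 members with a RefSeq window, Fgf11 held the TEAD letters 40 bases before its start and Fgf5 the ETS letters on the opposite strand 241 bases before its start. Fgf1 had no window in the table.

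Gene counts per library lay between 10377151 and 14698525 (median 12330911). Levels are given as CPM, the counts relative to library size with the 9 libraries of a day scaled to each other, and values of d2.5 and d5 are set side by side only on a common scale of all 18 libraries. Changes were tested with edgeR's quasi-likelihood test over all genes of a day, and a gene is called at a Benjamini-Hochberg adjusted p under 0.05. Of the NC markers Sox10, Foxd3 and Pax7 had 0 counts in every library, while 11 or 12 of the 15 genes on that list lay above the floor of 3 counts over a group. All 7 mesenchyme markers were above it at d2.5 and 6 of 7 at d5. The NC list summed to 495 to 538 CPM in the vehicle libraries at d2.5, 293 to 330 in the other 6 libraries of that day and 356 to 395 at d5. The siRNA targets fell under the knockdown against Ctrl+FGF2: the log2 fold change of Yap1 was -0.96 at d2.5 and -1.12 at d5, and that of Wwtr1, which encodes Taz, was -0.72 and -0.80. FGF2 alone raised 1 and lowered 1 of these 2 genes at d2.5, where 67.6% of all genes were called. Against Ctrl+vehicle the knockdown cells had 1 of the 2 called lower and 1 not called at d2.5. At d5 2 of 2 were called lower. The shares of all genes called were 69.8% and 41.8%.

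The 4 members Fgf5, Fgf9, Fgf11 and Fgf21 could not be read on either day, since they did not pass the filter on low counts. Fgf9 (ENSMUSG00000021974.15, chromosome 14, 58070547 to 58112720, plus strand) had 3 counts in all 18 libraries, never more than 1 in a library. Fgf5 (ENSMUSG00000029337.2, chromosome 5, 98254184 to 98277030, plus strand) had 11 counts, of which 6 came from the Ctrl+vehicle libraries at d2.5 with 2 counts each. Fgf11 (ENSMUSG00000042826.13, chromosome 11, 69796068 to 69801857, minus strand) had 41 counts, from 2 in Ctrl+FGF2 at d2.5 to 11 in Ctrl+vehicle at d5 when summed over a group. Fgf21 (ENSMUSG00000030827.5, chromosome 7, 45613886 to 45615490, minus strand) had 29 counts, with 3, 3 and 5 counts in the Ctrl+FGF2 libraries at d2.5 and 11 counts in that group as a whole, against 3 in Ctrl+vehicle at d2.5 and 1 in Ctrl+FGF2 at d5. No change is drawn from these counts. A total of 3 counts over a group corresponds to 0.0744 to 0.0848 CPM, so lower levels were not detectable at this depth. Klb, which Fgf21 requires, had at most 2 counts in a group and Kl, the co-receptor of Fgf23, had 0 in every library.

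Per kilobase of exon, Fgf7 was the most abundant member in all 6 groups. On the common scale of 18 libraries it stood at 28.8 ± 0.861 CPM per kb (SD, n = 3) at d2.5 without FGF2, 61.0 ± 2.15 with it and 58.8 ± 1.15 under the knockdown. At d5 the values were 53.6 ± 2.20, 70.9 ± 2.27 and 52.9 ± 0.868 CPM per kb in the same order. Fgf7 made up 75.9% to 83.4% of the summed level of the 9 members per kb in the mean of a group. Fgf10 came next in every group, from 4.80 ± 0.193 CPM per kb in Y/T dKD+FGF2 at d5 to 18.1 ± 0.427 in Ctrl+FGF2 at d2.5. The ratio of Fgf7 to Fgf10 per kb was 3.38 ± 0.118 in Ctrl+FGF2 at d2.5 and 11 ± 0.274 in Y/T dKD+FGF2 at d5, the lowest and the highest group mean.

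The order below these genes differed between the days. At d2.5 Fgf2 followed in each group, at 0.874 to 1.21 CPM per kb in the group means, and no library of a lower member reached the Fgf2 libraries of its group. Below Fgf2 no library of a member exceeded 0.379 CPM per kb, and in Ctrl+vehicle Fgf18, Fgf21, Fgf11, Fgf5 and Fgf1 overlapped from neighbour to neighbour. At d5 Fgf18 stood above Fgf2 in Ctrl+vehicle at 4.90 ± 1.45 CPM per kb, where its libraries overlapped those of Fgf10 but not those of Fgf2, and in Ctrl+FGF2 at 4.99 ± 0.364, where all 4 genes were apart. In Y/T dKD+FGF2 at d5 Fgf2 at 3.12 ± 0.127 CPM per kb lay above Fgf18 at 2.05 ± 0.631 came next, with no overlap. Fgf1 did not exceed 0.452 CPM per kb in any library of either day.

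**Figure D1:**
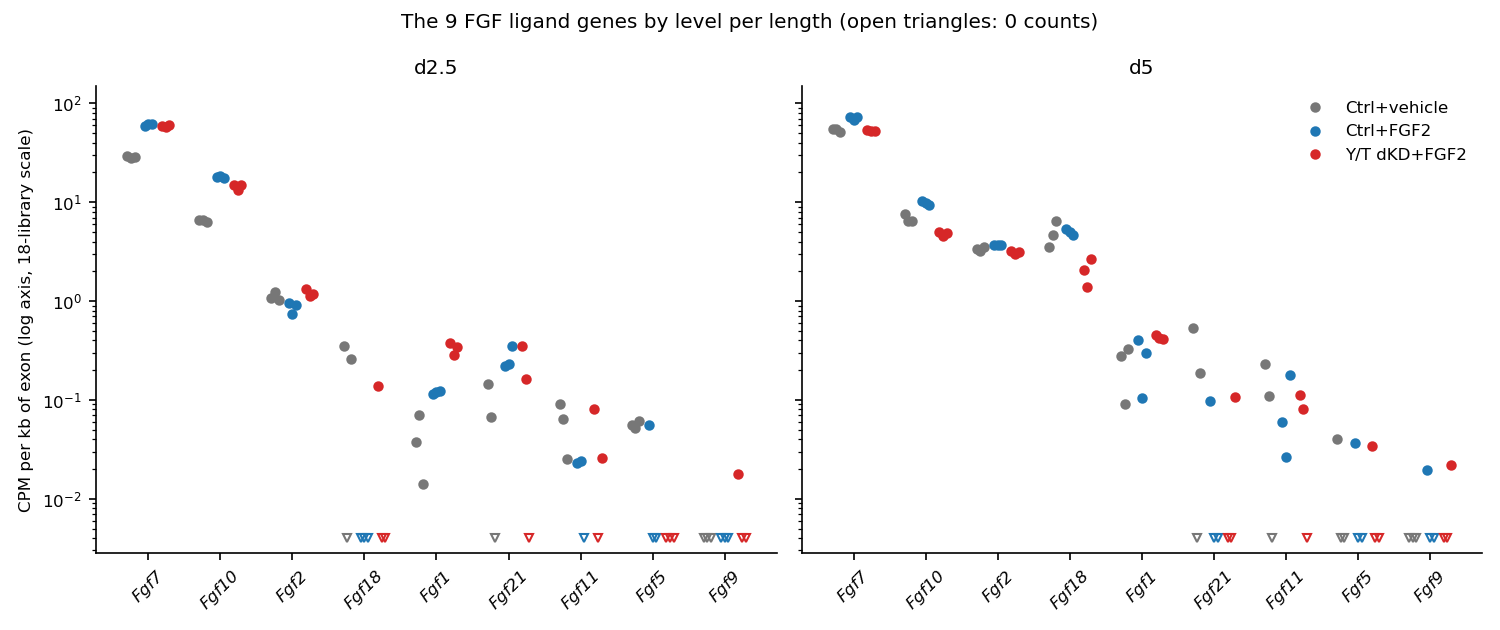
Level of the 9 FGF ligand genes in each library at d2.5 and d5, as CPM per kb of exon on a log axis (common scale of 18 libraries), with libraries coloured by group and open triangles for libraries with 0 counts. Fgf7 and Fgf10 lead in every group, and Fgf18 is near 0 at d2.5 and between 1.40 and 6.43 CPM per kb at d5.

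The comparison of Ctrl+FGF2 with Ctrl+vehicle reads the effect of added FGF2 on the cells' own ligand genes. At d2.5 Fgf7, Fgf10 and Fgf1 rose and Fgf2 fell, so that all 4 members that passed the filter were called, 3 higher and 1 lower. This stands against a background of 67.6% of the 13677 genes tested, with 33.5% called higher and 34.1% lower. With 4 members tested, such a count is not far from the background, and the sizes carry the description. Fgf1 passed the filter of d2.5 only through its Y/T dKD+FGF2 libraries, where it is highest. Counts of members called at d2.5 that include Fgf1 therefore depend on that filter.

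Fgf7 (ENSMUSG00000027208.14, chromosome 2, 126034658 to 126091185, plus strand) had 102.7, 97.3 and 100.7 CPM in the Ctrl+vehicle libraries at d2.5 and 202.7, 215.6 and 214.4 CPM in the Ctrl+FGF2 libraries. Every Ctrl+FGF2 library was thus above every Ctrl+vehicle library, with a log2 fold change of 1.07 (SE 0.038, adjusted p = 2.608e-21). Fgf10 (ENSMUSG00000021732.14, chromosome 13, 118669791 to 118792115, plus strand) had 32.4, 32.6 and 31.5 CPM without FGF2 and 87.7, 90.9 and 86.6 CPM with it. The groups did not overlap, and the log2 fold change was 1.46 (SE 0.053, adjusted p = 4.271e-21). Fgf13, an intracellular homologue and the sole other FGF gene that passed the filter, also rose at d2.5, with a log2 fold change of 0.84 (SE 0.10, adjusted p = 1.796e-08).

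Fgf1 (ENSMUSG00000036585.16, chromosome 18, 38838673 to 38929472, minus strand) rests on few reads: 3, 6 and 1 counts in the Ctrl+vehicle libraries and 9, 9 and 10 counts in the Ctrl+FGF2 libraries at d2.5. All Ctrl+FGF2 libraries were higher, with a log2 fold change of 1.44 (SE 0.48, adjusted p = 0.009193). Leaving out Ctrl+vehicle replicate 3 gave 1.09 (adjusted p = 0.0575), and leaving out Ctrl+vehicle replicate 2 gave 2.09 (adjusted p = 0.00324). Fgf2 (ENSMUSG00000037225.13, chromosome 3, 37348346 to 37410108, plus strand) had 7.76, 9.03 and 7.37 CPM without added FGF2 and 6.98, 5.35 and 6.60 CPM with it. The libraries did not overlap, and the log2 fold change was -0.35 (SE 0.13, adjusted p = 0.0168). The call was lost without Ctrl+vehicle replicate 2 (-0.26, adjusted p = 0.114), without Ctrl+FGF2 replicate 2 (-0.25, adjusted p = 0.118) and with DESeq2 (-0.36, adjusted p = 0.0598).

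At d5 the same comparison called Fgf7 and Fgf10 higher and none lower, 2 of the 5 members tested, against 47.2% of 13304 genes (23.5% higher, 23.7% lower). Fgf7 had 167.6, 165.8 and 155.0 CPM in Ctrl+vehicle and 221.5, 209.3 and 221.3 CPM in Ctrl+FGF2, and Fgf10 had 32.5, 27.5 and 27.9 CPM against 44.3, 42.5 and 40.9 CPM. Neither gene's groups overlapped. The log2 fold change was 0.42 for Fgf7 (SE 0.041, adjusted p = 2.345e-07) and 0.54 for Fgf10 (SE 0.069, adjusted p = 4.278e-06). The remaining 3 members did not pass the test. Fgf2 had 21.3, 20.4 and 22.2 CPM in Ctrl+vehicle against 23.8, 23.9 and 23.8 CPM in Ctrl+FGF2, with a log2 fold change of 0.16 (95% interval 0.015 to 0.31, adjusted p = 0.06559), and with upper-quartile scaling it was 0.19 (adjusted p = 0.0346). For Fgf18 the log2 fold change was 0.03 (95% interval -0.38 to 0.44), and for Fgf1 it was 0.22 (95% interval -0.68 to 1.11). In Fgf1 replicate 2 was the lowest library of both groups, with 6 counts against 15 and 20 in Ctrl+vehicle and 7 counts against 24 and 18 in Ctrl+FGF2.

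The effect of FGF2 was smaller at d5 than at d2.5 for the Fgf7 and Fgf10 pair. For Fgf2 the estimates of the 2 days differed and had opposite signs, but the one at d5 was not called. In the fit of all 18 libraries, where 60.9% of 14198 genes differed in this way, the log2 fold change at d5 minus that at d2.5 was -0.68 for Fgf7 (SE 0.056, adjusted p = 1.176e-11), -0.94 for Fgf10 (SE 0.087, adjusted p = 1.493e-10) and 0.49 for Fgf2 (SE 0.14, adjusted p = 0.003043). Fgf1 did not pass, at -1.24 (SE 0.71, adjusted p = 0.1337). It did without Ctrl+vehicle d5 replicate 2 (adjusted p = 0.0275) and without Ctrl+FGF2 d5 replicate 1 (adjusted p = 0.0421). Fgf18 was called as well, but it had 0 counts in Ctrl+FGF2 at d2.5, so its fitted difference gives no readable size. The labels give each day a batch of its own, so day and batch cannot be told apart.

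**Figure D2:**
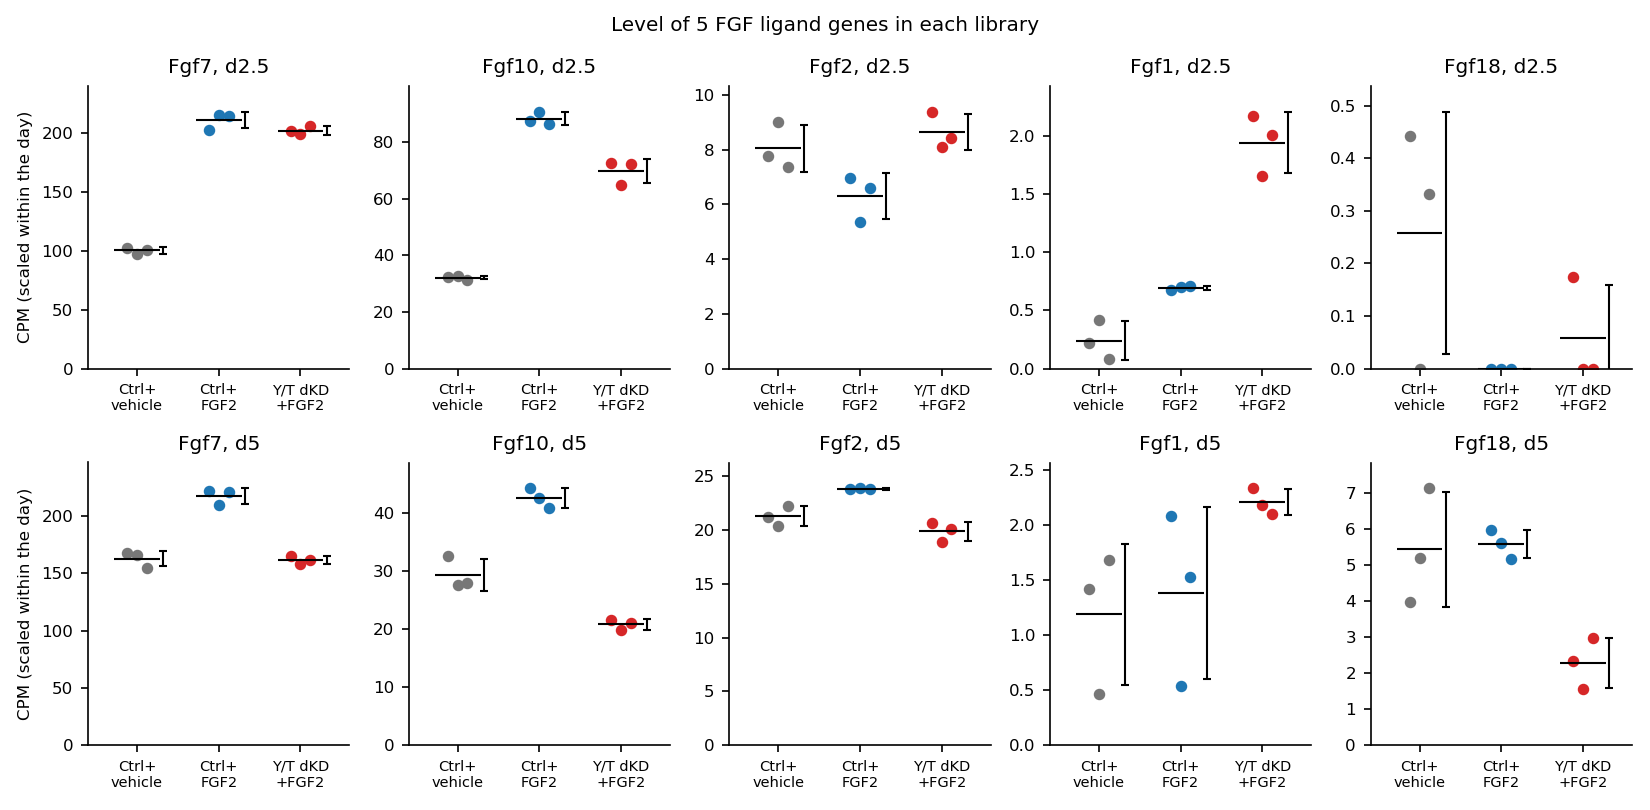
CPM in each library for the 5 members that passed the filter on at least 1 day, with d2.5 in the upper row and d5 in the lower row, each scaled within its day. Dots are libraries, horizontal lines are means and bars are SDs of 3 libraries, cut at 0. Fgf7 and Fgf10 lie higher in each Ctrl+FGF2 library than in any Ctrl+vehicle library of the same day.

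The comparison of Y/T dKD+FGF2 with Ctrl+FGF2 reads what the knockdown of Yap and Taz changed in the presence of FGF2. It shares the Ctrl+FGF2 libraries with the comparison above, so the changes in either are not independent. At d2.5 Fgf1 and Fgf2 were higher, Fgf10 was lower and Fgf7 did not pass, 3 of 4 members called against 24.5% of the genes tested (10.8% higher, 13.6% lower). Fgf1 had 25, 20 and 24 counts under the knockdown against 9, 9 and 10 with FGF2 alone, without overlap and with a log2 fold change of 1.47 (SE 0.31, adjusted p = 6.552e-04). It entered the fit of d2.5 only through these knockdown libraries, so its call is not independent of the filter. Fgf10 had 72.6, 65.0 and 72.4 CPM against 87.7, 90.9 and 86.6 CPM, a log2 fold change of -0.34 (SE 0.047, adjusted p = 3.68e-06). Fgf2 had 9.40, 8.11 and 8.45 CPM against 6.98, 5.35 and 6.60 CPM, again without overlap. Its log2 fold change was 0.45 (SE 0.13, adjusted p = 0.01138), and the call was lost without Ctrl+FGF2 replicate 2 (0.35, adjusted p = 0.081) and without Y/T dKD+FGF2 replicate 1 (0.38, adjusted p = 0.0678). Fgf7 had 201.4, 198.9 and 205.8 CPM against 202.7, 215.6 and 214.4 CPM, and the interval of its log2 fold change was -0.14 to 0.01 (adjusted p = 0.2177).

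At d5 Fgf7, Fgf10, Fgf2 and Fgf18 were lower under the knockdown, 4 of 5 members called, all lower, against 31.7% of the genes tested (15.6% higher, 16.1% lower). Fgf10 had 21.5, 19.8 and 21.0 CPM against 44.3, 42.5 and 40.9 CPM with FGF2 alone, a log2 fold change of -1.03 (SE 0.072, adjusted p = 6.685e-09). Fgf18 (ENSMUSG00000057967.12, chromosome 11, 33117430 to 33147400, minus strand) had 29, 20 and 31 counts against 69, 73 and 61. At 2.33, 1.56 and 2.96 CPM against 5.97, 5.61 and 5.18 CPM its libraries did not overlap, and the log2 fold change was -1.31 (SE 0.23, adjusted p = 2.895e-04). Fgf7 had 164.8, 158.2 and 161.3 CPM against 221.5, 209.3 and 221.3 CPM, with a log2 fold change of -0.43 (SE 0.041, adjusted p = 2.983e-07). The change of Fgf2 was the smallest of the 4, from 23.8, 23.9 and 23.8 CPM to 20.7, 18.9 and 20.1 CPM, with a log2 fold change of -0.26 (SE 0.071, adjusted p = 0.008707). DESeq2 did not call it (adjusted p = 0.0675). Fgf1 had 29, 28 and 22 counts against 24, 7 and 18, with every knockdown library at a higher CPM. Its log2 fold change was 0.70 (95% interval -0.07 to 1.48, adjusted p = 0.1619), and over libraries left out it ran from 0.29 (without Ctrl+FGF2 replicate 2, adjusted p = 0.553) to 1.12. It passed without Ctrl+FGF2 replicate 1 (1.12, adjusted p = 0.0424) and with no filter on low counts (0.71, adjusted p = 0.0483).

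The knockdown effect itself differed between the days for 3 members, against 20.9% of the genes tested. At d5 minus d2.5 the log2 fold change was -0.37 for Fgf7 (SE 0.055, adjusted p = 1.058e-05), -0.70 for Fgf10 (SE 0.087, adjusted p = 6.715e-07) and -0.72 for Fgf2 (SE 0.14, adjusted p = 4.165e-04). Fgf2 was higher under the knockdown at d2.5 and lower at d5. For Fgf1 the difference was -0.77 (SE 0.51, adjusted p = 0.325), and Fgf18 could not be read, since 2 of the 4 groups were at or under the floor at d2.5.

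Set against Ctrl+vehicle, a comparison that shares libraries with both others, Fgf7 and Fgf10 were higher in the knockdown cells at d2.5 and not at d5. At d2.5 Fgf7 at a log2 fold change of 1.01 (SE 0.039, adjusted p = 1.588e-20), Fgf10 at 1.12 (SE 0.055, adjusted p = 1.129e-17) and Fgf1 at 2.91 (SE 0.39, adjusted p = 7.869e-08) were higher, 3 of 4 members and none lower, against 69.8% of the genes tested (34.1% higher, 35.7% lower). Fgf1 was at 3.56 without Ctrl+vehicle replicate 2, and its call here too depends on a filter that it passed only through the knockdown libraries. Fgf2 did not pass, at 0.10 (95% interval -0.16 to 0.35, adjusted p = 0.5069). At d5 Fgf10 at -0.49 (SE 0.077, adjusted p = 5.394e-05) and Fgf18 at -1.28 (SE 0.23, adjusted p = 2.609e-04) were lower, 2 of 5 members and none higher, against 41.8% (20.7% higher, 21.1% lower). The 3 Ctrl+vehicle libraries had 42, 67 and 85 counts of Fgf18, and all lay above the 20 to 31 counts of the knockdown libraries. The SD at d5 was 1.596 CPM around a mean of 5.435 in Ctrl+vehicle and 0.703 CPM around 2.283 in the knockdown. Fgf7 was at -0.01 (95% interval -0.10 to 0.08), Fgf2 at -0.10 (95% interval -0.25 to 0.06) and Fgf1 at 0.92 (95% interval 0.11 to 1.73, adjusted p = 0.06291). For Fgf1 the adjusted p ranged from 0.00603 to 0.277 over the alternatives, and it passed in 7 of 18. These were no filter on low counts (0.00603), only the 2 groups compared (0.0267), all 18 libraries in 1 fit (0.0317), the replicate block (0.0321) and leaving out Ctrl+vehicle replicate 3 (0.0382), Ctrl+FGF2 replicate 1 (0.0399) or Ctrl+FGF2 replicate 2 (0.0239).

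**Figure D3:**
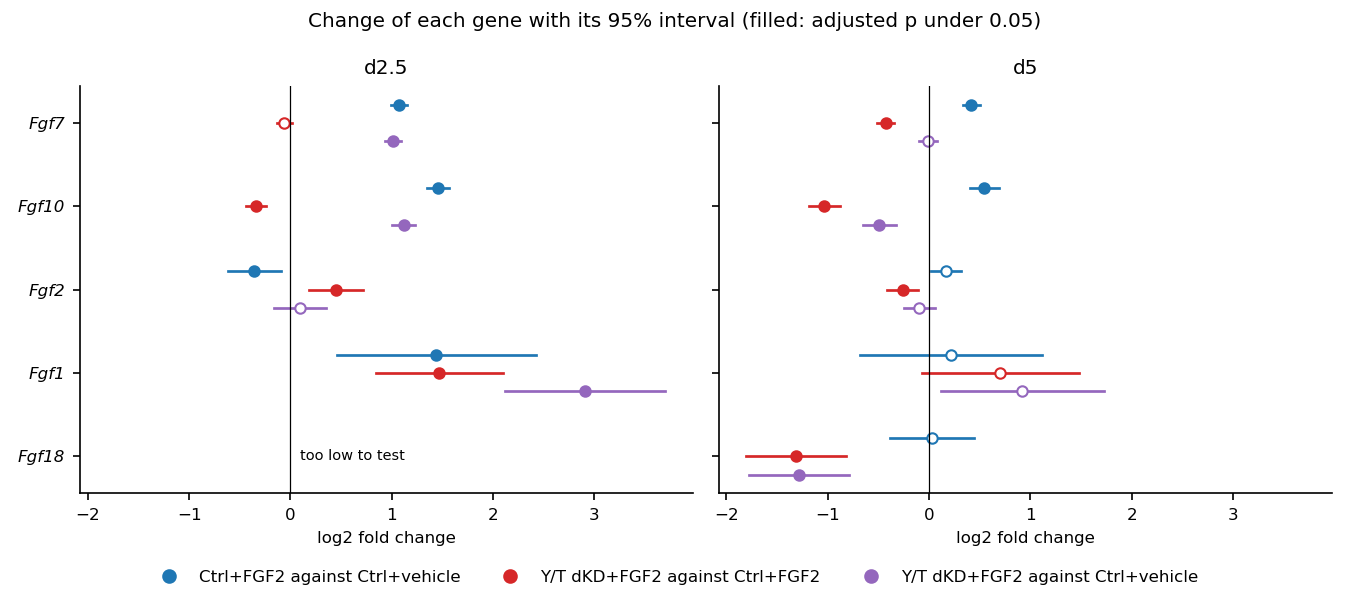
Log2 fold change of the members that passed the filter, with 95% intervals, at d2.5 and d5 in each of 3 comparisons, where filled points have an adjusted p under 0.05. Fgf7 and Fgf10 are to the right of 0 for FGF2 on both days, and Fgf10 and Fgf18 are to the left of 0 in both comparisons of the knockdown at d5.

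Between d2.5 and d5 the ligands moved in different directions. In Ctrl+vehicle 4 of 5 members were called, all higher at d5, against 66.4% of the genes tested. With FGF2 alone 5 of 5 were called against 80.0%, and under the knockdown 4 of 5 against 78.4%. Fgf18 is among the called members each time, and since it passed the filter through its d5 libraries, where it is high, its call was fixed by the filter. Of the 4 members other than Fgf18, 3, 4 and 3 were called in these groups. Fgf2 was higher at d5 in all 3 groups, with log2 fold changes of 1.59 (SE 0.093), 2.09 (SE 0.095) and 1.37 (SE 0.096) for vehicle, FGF2 alone and the knockdown, in this order. Fgf10 was at 0.06 in Ctrl+vehicle (95% interval -0.08 to 0.19) and lower at d5 in both groups with FGF2, at -0.88 (SE 0.055) in Ctrl+FGF2 and -1.58 (SE 0.065) in Y/T dKD+FGF2. Fgf7 was higher at d5 without FGF2 (0.90, SE 0.041) and with FGF2 alone (0.22, SE 0.038), and lower under the knockdown (-0.15, SE 0.039).

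Fgf18 was at or near the floor at d2.5 and readable in every library at d5. Its d2.5 libraries had 6, 0 and 4 counts in Ctrl+vehicle, 0 in each Ctrl+FGF2 library and 2, 0 and 0 in Y/T dKD+FGF2. At d5 the counts summed to 194, 203 and 80 over these groups. The ratio of d5 to d2.5 was 25.2 in Ctrl+vehicle (95% interval 13.4 to 53.3) and 44.7 in Y/T dKD+FGF2, where the 2 counts at d2.5, all from replicate 1, leave an interval of 12 to 376. In Ctrl+FGF2 the ratio was 84.6 with d2.5 set to the floor of 3 counts over the group. The 95% interval of the ratio, from 203 against 0 counts, had a lower limit of 68.2. These intervals cover counting error only. The fitted log2 fold change in Ctrl+vehicle was 4.59 (SE 0.39), and it was 5.27 without d2.5 replicate 1 and 3.97 without d2.5 replicate 2, the libraries with 6 and 0 counts. Fgf1 was higher at d5 in Ctrl+vehicle (log2 fold change 2.37, SE 0.54) and in Ctrl+FGF2 (1.12, SE 0.41, adjusted p = 0.01467), and in Y/T dKD+FGF2 it was at 0.35 (95% interval -0.27 to 0.98). The call in Ctrl+FGF2 was lost without its d5 replicate 1 (0.70, adjusted p = 0.163) and without its d5 replicate 3 (1.03, adjusted p = 0.0508), and in Ctrl+vehicle the change was 3.0 without d2.5 replicate 2.

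Overlapping genes bear on how Fgf2 and Fgf10 are read. Nudt6 overlaps exons of Fgf2 on the opposite strand and had 527 counts over the 18 libraries against 3214 for Fgf2. Gm16263 overlaps exons of Fgf10 on the opposite strand and had 248 counts against 10652. Counting without strand, where reads shared by 2 genes are dropped, left 2741 counts for Fgf2 and 10157 for Fgf10, and no call of either gene changed. Fam227b lies opposite Fgf7 without shared exons and had 10 counts.

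The cells held transcripts of Fgfr1, Fgfr2, Fgfr3 and Fgfrl1, and these receptor genes moved with the treatment as well. Of the 7 receptor and Klotho genes, 4 passed the filter, and Fgfr4 had at most 1 count in a group. FGF2 raised 1 and lowered 3 of these 4 at d2.5, where 67.6% of all genes were called. At d5 it raised 2 and lowered 1, where 47.2% were called. At d2.5 FGF2 raised Fgfr1, which binds Fgf1 and Fgf2, by 0.69 on the log2 scale (SE 0.041, adjusted p = 1.37e-15). Fgfr2, the receptor gene of Fgf7 and Fgf10, was lower by a log2 fold change of -3.33 (SE 0.049, adjusted p = 2.922e-31), from 28.4 to 2.84 CPM per kb, while Fgf7 rose from 28.8 to 61.0 and Fgf10 from 6.51 to 18.1 CPM per kb. Fgfr3 was lower by -4.93 (SE 0.14, adjusted p = 1.863e-23) and the decoy receptor Fgfrl1 by -1.02 (SE 0.062, adjusted p = 2.809e-15). At d5 the change of Fgfr2 with FGF2 was 0.45 (SE 0.039, adjusted p = 4.355e-08) and its level was 51.8 CPM per kb without FGF2, 70.1 with FGF2 alone and 55.8 under the knockdown. Fgfrl1 was at 0.84 with FGF2 at d5 (SE 0.067, adjusted p = 1.644e-08) and Fgfr1 at -0.26 (SE 0.046, adjusted p = 1.648e-04). Under the knockdown Fgfr2 was at a log2 fold change of 0.05 at d2.5 (SE 0.066, adjusted p = 0.5982) and -0.34 at d5 (SE 0.038, adjusted p = 2.528e-06). Fgfr3 was at 0.68 (SE 0.12, adjusted p = 3.353e-04) and Fgfr1 at 0.54 (SE 0.046, adjusted p = 7.269e-08) under the knockdown at d5. In all, 2 of the 4 receptor genes were higher and 2 lower there, beside 15.6% and 16.1% of all genes. The knockdown raised 1 and lowered 1 at d2.5, beside 10.8% and 13.6%. Gene counts do not separate the IIIb and IIIc forms of Fgfr2.

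**Figure D4:**
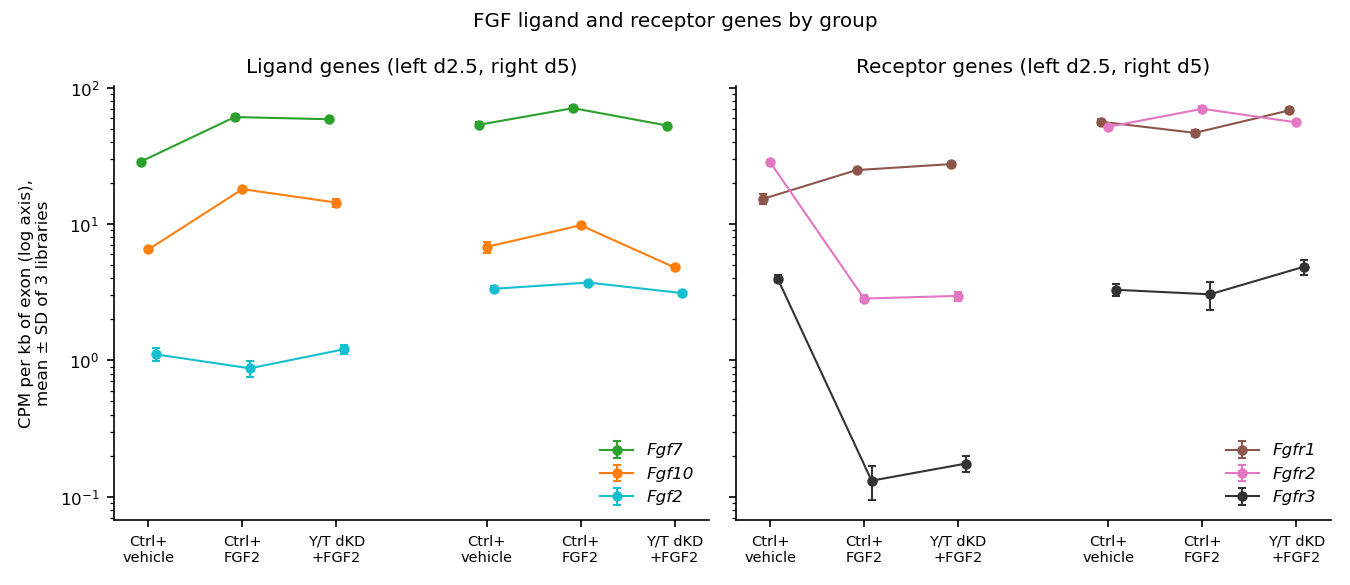
Mean level of 3 ligand genes (left) and 3 receptor genes (right) in each group, as CPM per kb of exon on a log axis with SD over 3 libraries. At d2.5 Fgf7 and Fgf10 are higher and Fgfr2 and Fgfr3 lower in the groups with FGF2, and at d5 Fgfr2 lies between 51.8 and 70.1 CPM per kb in all 3 groups.

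The remaining FGF pathway genes were read from lists chosen by name. At d2.5 FGF2 raised 13 of the 14 feedback and early target genes tested and lowered 1, with a median log2 fold change of 1.73 beside 0.00 over all genes tested. In that comparison 33.5% of all genes were called higher and 34.1% lower. The ETS factors Etv4 (3.9, SE 0.057, adjusted p = 2.588e-31) and Etv5 (3.86, SE 0.057, adjusted p = 4.129e-31) led, followed by the phosphatase Dusp4 (3.26, SE 0.099, adjusted p = 5.177e-23). At d5 FGF2 raised 11 of 14 and lowered none (median 0.43 beside 0.02), where 23.5% of all genes were called higher and 23.7% lower. Etv4 was at 1.23 (SE 0.20, adjusted p = 5.906e-05). Under the knockdown 2 of 14 were higher and 4 lower at d2.5 (median -0.03 beside 0.00), where 10.8% of all genes were called higher and 13.6% lower. At d5, where Fgf7, Fgf10, Fgf2 and Fgf18 were lower, 8 of 14 feedback genes were higher and 1 lower (median 0.40 beside 0.00). Of all genes 15.6% were called higher and 16.1% lower there. Among the feedback genes called higher were Dusp4 at 1.89 (SE 0.16, adjusted p = 7.542e-08), Etv4 at 1.52 (SE 0.14, adjusted p = 2.31e-07) and Dusp6, a phosphatase of ERK, at 1.12 (SE 0.089, adjusted p = 3.289e-08).

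Of the 8 adaptor genes, FGF2 raised 2 and lowered 4 at d2.5 (median log2 fold change -0.18), where 67.6% of all genes were called, and raised 5 and lowered 1 at d5 (median 0.25), where 47.2% were. Frs2, the docking protein of the receptors, had a log2 fold change of -0.85 at d2.5 (SE 0.038, adjusted p = 1.094e-18), and Gab1 had -0.94 at d2.5 (SE 0.081, adjusted p = 1.113e-11) and 0.47 at d5 (SE 0.056, adjusted p = 2.052e-06). Under the knockdown 1 adaptor gene was higher and 1 lower at d2.5, and none higher and 3 lower at d5, beside 24.5% and 31.7% of all genes (medians 0.01 and -0.12). Of the 13 tested genes for extracellular carriers and heparan sulfate enzymes, FGF2 raised 3 and lowered 8 at d2.5 (median -0.33) and raised 4 and lowered 4 at d5 (median -0.02), with the same shares of all genes as for the adaptors. Sulf1, which removes sulfate groups from heparan sulfate outside the cell, was at -4.13 at d2.5 (SE 0.23, adjusted p = 2.829e-16) and -0.76 at d5 (SE 0.097, adjusted p = 5.153e-06). The membrane protein Flrt2, a partner of FGF receptors, was at 1.45 at d2.5 (SE 0.038, adjusted p = 1.274e-24). Flrt3, on the same list, went the other way at d2.5, at -0.98 (SE 0.094, adjusted p = 1.097e-10). The knockdown raised 2 and lowered 2 of these 13 genes at d2.5 (median -0.02 beside 24.5% of all genes called) and raised 3 and lowered 5 at d5 (median -0.17 beside 31.7%), where Sulf1 was at 1.01 (SE 0.094, adjusted p = 2.321e-07).

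**Figure D5:**
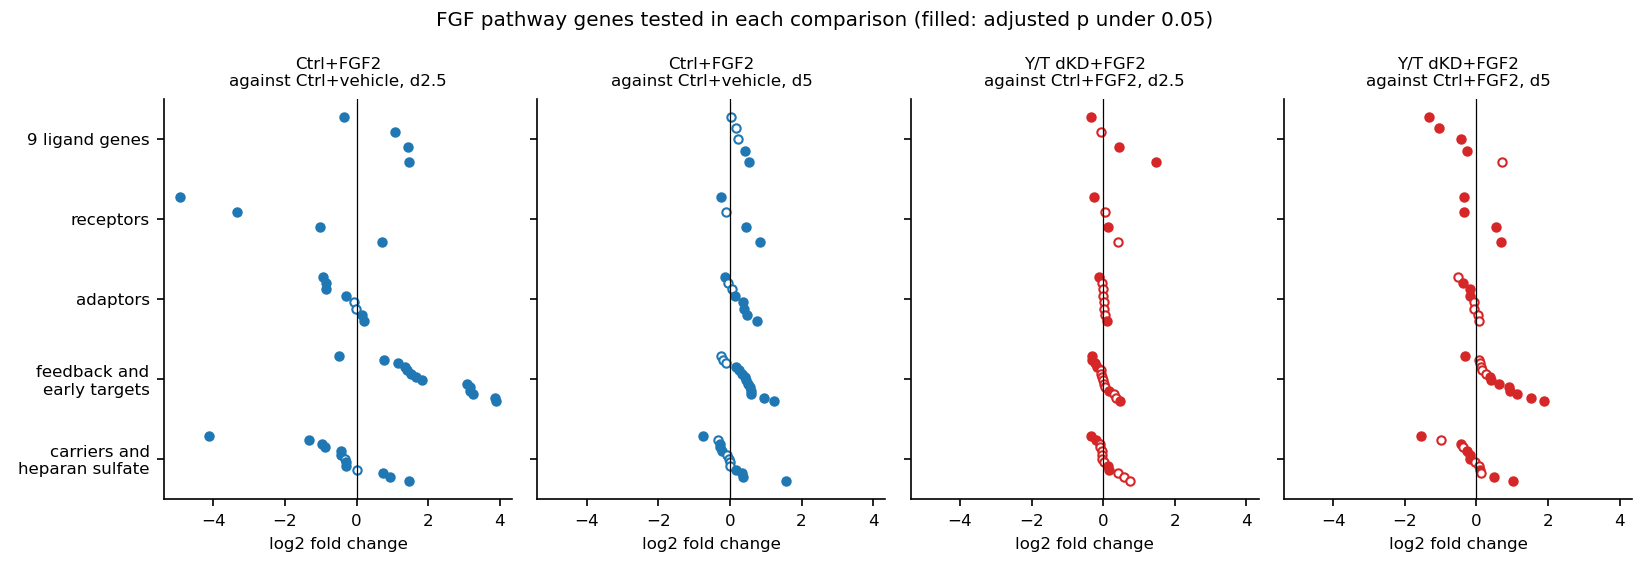
Log2 fold change of every tested gene of 5 FGF pathway lists in 4 comparisons, 1 dot per gene, where filled dots have an adjusted p under 0.05. At d2.5 with FGF2 the feedback genes spread to the right up to 3.9 and 3 of the 4 receptors to the left down to -4.93. Under the knockdown at d5 4 called ligand genes lie to the left of 0 and 8 called feedback genes to the right, beside 31.7% of all genes called.

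Markers of differentiation also differed between the groups. The summed level of 7 osteoblast markers was 14200 to 14400 CPM in the Ctrl+vehicle libraries, 2920 to 3080 with FGF2 alone and 3340 to 3420 under the knockdown at d2.5, and 29000 to 31100, 14900 to 16600 and 20600 to 21900 CPM at d5. Of the osteoblast markers tested, FGF2 raised 1 and lowered 5 of 6 at d2.5 and raised 3 and lowered 4 of 7 at d5, beside 67.6% and 47.2% of all genes called. Against Ctrl+FGF2 the knockdown raised 3 and lowered 1 of 6 at d2.5 and raised 7 of 7 at d5, and against Ctrl+vehicle at d5 it raised 4 and lowered 2 of 7 (median log2 fold change 0.51), so the sum does not speak for each marker. The shares of all genes called in these comparisons were 24.5%, 31.7% and 41.8%, in this order. The 7 mesenchyme markers summed to 6020 to 6410, 7900 to 7960 and 7910 to 8020 CPM at d2.5 and to 6330 to 6650, 7900 to 8090 and 5980 to 6080 CPM at d5. Most of the mesenchyme markers did not follow that sum at d2.5, where FGF2 raised 2 and lowered 4 of the 6 tested (median log2 fold change -0.36). At d5 FGF2 raised 4 and lowered 1 of 6, and against Ctrl+FGF2 the knockdown raised 1 and lowered 1 at d2.5 and raised 2 and lowered 3 at d5. The shares of all genes called are those given with the osteoblast markers. In bulk RNA, fewer cells of a type and less RNA per cell cannot be told apart. Markers of other cells were low. The 6 glial and neuronal markers summed to 24.4 to 28.3 CPM in the vehicle libraries at d2.5, 6.94 to 14.3 in the other libraries of that day and 1.34 to 4.16 at d5, with 3 or 4 of them above the floor. The 6 epithelial markers, 2 or 3 above the floor, summed to 4.72 to 6.04 CPM in the vehicle libraries at d2.5 and to at most 2.52 in any other library. Endothelial markers summed to at most 4.17 CPM with 1 of 4 above the floor, blood markers to at most 4.34 with 1 or 2 of 4, and pluripotency markers to at most 0.845 with none or 1 of 3. Fabp7 and Elavl3 were at 0 in every group, as were Cdh5, Pou5f1 and Zfp42. The part of any of these cell types in the changes of the ligand genes was not tested.

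Some genes followed a ligand closely over the 18 libraries, when compared by Pearson's r of log2 CPM among 11730 genes. Fgf2 was closest to Ppfibp2 (0.993), Bmpr1a (0.988) and Eid1 (0.987). Fgf7 was closest to Epn2 (0.97), Fgd6 (0.965) and Ltbp1 (0.954), and Fgf10 to Camk2d (0.974), Celf2 (0.973) and Pcgf5 (0.972). Among Fgf2, Fgf7 and Fgf10, r was 0.463 for Fgf7 with Fgf10, 0.361 for Fgf2 with Fgf7 and -0.592 for Fgf2 with Fgf10. Pairs with the low members Fgf1 and Fgf18 ran from -0.595 (Fgf10 with Fgf18) to 0.955 (Fgf2 with Fgf18). The 18 libraries form 6 groups of replicates that differ in day and treatment, so these values describe group differences and carry no test.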

How the data were processed

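Libraries were made from polyadenylated RNA, so transcripts lacking a poly(A) tail are mostly missed. For each of the 18 libraries the authors deposited a table of read counts by gene, as they came from the gene counter, not normalized, and their 4 columns follow STAR's gene count output. The submitters' processing notes name FastQC, STAR, Picard, featureCounts and the build mm10, and give no versions or roles. Reverse-strand counts were taken, since 96.0% to 96.6% of strand-specific counts fell there. Rows for reads outside a single gene held 27.0% to 34.4% of a library and did not enter library sizes or tests. Names, coordinates and exon lengths came from GENCODE M21 (GRCm38), which holds 55154 of the 55335 identifiers, and promoter windows from RefSeq on GRCm38.p6.

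The test was that of edgeR 4.0.16 under R 4.3.3 (TMM scaling, filterByExpr with a minimum count of 10 and a total of 15, quasi-likelihood test, Benjamini-Hochberg adjustment over all genes tested). Each day's 9 libraries were fitted together, and differences between days and changes from d2.5 to d5 came from a fit of all 18. All adjusted p-values come from these fits unless another tool is named, and every fold change is on edgeR's log2 scale. The SE of a log2 fold change was derived from its size and the root of its F statistic. The fits were checked on simulated data. A member that did not pass the filter of a day was called too low to read there. Genes from the lists could be named when called and among the 3 largest changes of their list at a mean log2 CPM of at least 1, or when overlapping a member. Not every gene that met this rule is named. Fgfr1 and Fgfr2 were also given in comparisons where they ranked lower, chosen after their values were seen. The 3 closest genes per ligand were taken by Pearson's r.

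The members and lists were chosen with earlier results of these data known. Alternatives were DESeq2 1.42.0, a stricter filter (at least 10 counts in every library) or none, RLE or upper-quartile scaling, unstranded counts, a replicate block, a threshold of 0.01, only the 2 groups compared, all 18 libraries in 1 fit, and leaving out each library.

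Replicate numbers were not used to pair libraries. Replicates of a group differed beyond counting noise (chi-square per degree of freedom 1.249 to 6.412), so no library looked like another deposited again.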

Additional observations from a re-analysis of the deposited data

Results flagged for a closer look

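Of the effects on ligand genes with a readable size, 6 differed between d2.5 and d5 by a test of the difference itself (edgeR, fit of all 18 libraries). For added FGF2, the log2 fold change at d5 minus that at d2.5 was -0.68 for Fgf7, -0.94 for Fgf10 and 0.49 for Fgf2, where 60.9% of all genes tested differed. Fgf18 was called as well, but had 0 counts in a group, which leaves no readable size. For the knockdown in the presence of FGF2 it was -0.37 for Fgf7, -0.70 for Fgf10 and -0.72 for Fgf2, where 20.9% of all genes differed. The labels give each day its own batch, so day and batch cannot be told apart. Groups of 3 libraries were not tested for outlying libraries.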

How the results depend on the processing

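The calls of Fgf7 and Fgf10 within a day kept their direction and their side of the threshold in every alternative, with log2 fold changes of 1.04 to 1.1 and 1.42 to 1.48 for FGF2 at d2.5 and of -0.46 to -0.42 and -1.06 to -1.0 for the knockdown at d5. Over 52 values of single members and 1145 recomputed values, 1110 kept direction and side of the threshold, 14 fell short of it, 12 newly passed it and 9 changed sign. An alternative in which a member was not tested is left out of this tally and does not count as a lost call. Fgf1 with FGF2 at d2.5 therefore had 17 alternatives, where Fgf7 had 19. Each change of sign was in a value that had not passed the test: Fgf18 with FGF2 at d5 (range -0.14 to 0.27 over libraries left out, -0.14 without Ctrl+vehicle replicate 1, -0.010 without Ctrl+vehicle replicate 2, -0.019 without Ctrl+FGF2 replicate 1), Fgf1 with FGF2 at d5 (range -0.20 to 0.63, -0.20 without Ctrl+vehicle replicate 2 or Ctrl+FGF2 replicate 1), Fgf7 under the knockdown against Ctrl+vehicle at d5 (0.0068 with upper-quartile factors, range -0.047 to 0.0072, the latter without Ctrl+vehicle replicate 1) and Fgf10 from d2.5 to d5 in Ctrl+vehicle (-0.037 with upper-quartile factors, range -0.016 to 0.099, the former without Ctrl+vehicle d5 replicate 1). Upper-quartile factors moved the median of all genes to -0.11 in the latter comparison and to 0.12 for the difference of the FGF2 effect between days. At a threshold of 0.01, the calls of Fgf2 at d2.5 were lost for FGF2 and for the knockdown, as were those of Fgf1 from d2.5 to d5 in Ctrl+FGF2 and of Fgf18 for the difference of the FGF2 effect. The latter was also lost without Ctrl+vehicle d2.5 replicate 1 (adjusted p = 0.067). With at least 10 counts in every library Fgf1 and Fgf18 are no longer tested across days, so the members called from d2.5 to d5 went to 2 in Ctrl+vehicle and 3 in Ctrl+FGF2.

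The deviations of same-numbered libraries from their group means correlated at -0.082 to 0.0424 at d2.5 and at -0.0629 to 0.157 at d5. Libraries of different number gave -0.0407 to 0.111 at d2.5 and -0.154 to 0.0547 at d5. Between Ctrl+vehicle and Ctrl+FGF2 at d5, same-numbered libraries correlated at 0.145, 0.157 and 0.0273, and every other pair negatively (-0.154 to -0.0012). A weak pairing of these groups at d5 can therefore not be set aside. With the replicate number as a block, members called in the within-day comparisons were 4, 3 and 3 at d2.5 and 2, 4 and 3 at d5, where Fgf1 under the knockdown against Ctrl+vehicle was added (0.93, adjusted p = 0.0321); across days the counts were 4, 3, 4, 5 and 4, and the change of Fgf18 from d2.5 to d5 in Ctrl+vehicle was 3.55 against 4.59 without the block. Depth limits Fgf5, Fgf9, Fgf11 and Fgf21 on both days and Fgf18 at d2.5.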
